A study of Mus musculus with 8 samples.

Results

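Proteins that bind messenger RNA, among them repressors of its translation, were followed through 10 of their genes in testes with and without *Morc2b*. The genes were chosen by name, as germ cell regulators beside their close paralogs, and make up 10 of the 24652 genes in the counts. They are the Y-box protein genes *Ybx1*, *Ybx2* and *Ybx3*, the fragile X family genes *Fmr1*, *Fxr1* and *Fxr2*, the DAZ family genes *Dazl* and *Boll*, the polyadenylation regulator gene *Cpeb1*, and *Ythdc2*. RNA was sequenced from whole testes of 12-day-old males on a mixed strain background, 4 wild type and 4 *Morc2b*-/- pairs of testes. The mutant allele is a null made by gene targeting, in which a selection cassette takes the place of exon 2, the exon that codes for the protein, it came from 1 embryonic stem cell clone, and it is carried in all cells of the animal. The sample labels call the controls wild type, whereas the design text of the series calls them *Morc2b*+/-, and they are called wild type here.

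Germ cells make many messenger RNAs long before the protein is needed, and keep them silent in protein-RNA particles. Y-box proteins coat such messages through a cold shock domain, and YBX2 (MSY2) is the form known from germ cells, whereas YBX1 and YBX3 are made in many tissues. FMRP, encoded by *Fmr1*, represses translation together with its paralogs FXR1 and FXR2. DAZL and BOLL bind the 3' ends of messages in germ cells, CPEB1 controls the length of the poly(A) tail, and YTHDC2 binds m6A-marked messages and is required for the passage from mitosis into meiosis. At day 12 the most advanced germ cells of a wild type testis are mainly leptotene and zygotene spermatocytes.

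The part of each gene that was measured differed, and this sets what can be said of it. Reads that overlap more than 1 listed transcript were set aside before the counts were made, at 26.8% to 28.8% of the uniquely aligned reads per sample. *Ybx1*, *Fxr2* and *Ythdc2* are each listed under 1 transcript, and their counts cover the whole message. The other 7 genes are listed under 2 or 3 transcripts, and only reads that fell on bases of a single listed transcript remained. For *Ybx2*, 884 counts remained over the 8 samples, 99.8% of them on NM_001347634, and only 2 on NM_016875. All counts of *Ybx3* were on NM_139117, all of *Fmr1* on NM_008031, all of *Fxr1* on NM_001113188 and all of *Dazl* on NM_010021, and 95.9% of those of *Boll* were on NM_001113367. *Cpeb1*, listed under 3 transcripts, had 0 counts in every sample, which is no measurement of its expression, and it could not be tested. Of the 10 genes, 9 passed the filter on low counts.

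The sequences shown first belong to *Ybx2*, since the study assayed it by real-time PCR as well. In the NCBIM37 (mm9) annotation *Ybx2* lies on the plus strand of chromosome 11, from 69749298 to 69755107. The primers were placed on this annotation to show which part of the gene that assay reads. They are given 5′ to 3′ in lower case.
Ybx2 forward: cccaacagcctaccacagaa
Ybx2 reverse: gataggcgcggaggtctct
The forward primer matched exon 7 (69754112 to 69754131). The reverse primer matched across the junction of exon 7 (69754266 to 69754269) and exon 8 (69754548 to 69754562). Both sites are coding, and the product of 173 bases is present in the *Ybx2*-001 and *Ybx2*-002 transcripts of the annotation, that is, in 2 of its 3 coding *Ybx2* transcripts. The RNA-seq counts of *Ybx2* instead come from bases that 1 listed transcript has to itself, so the assay and the counts need not read the same part of the message.

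Y-box proteins are named after the Y-box, a promoter element around an inverted CCAAT sequence, which reads ATTGG on the other strand. To show where members of the group carry this element themselves, ATTGG was searched on both strands in the 250 bases before each start site (RefSeq, GRCm38.p6). *Ythdc2* had no entry, and the other 9 members had 12 promoters. At least 1 match was found in 4 of these 12 promoters (33.3%), 1 each of *Ybx1*, *Ybx2*, *Dazl* and *Boll*, which is near the background, since 33.8% of all 32851 promoters hold at least 1 match, 10.1% at least 2 and 2.79% at least 3. The stretches with the matches are given on the strand of the gene, 5′ to 3′, with ATTGG or CCAAT in capitals.
Ybx2: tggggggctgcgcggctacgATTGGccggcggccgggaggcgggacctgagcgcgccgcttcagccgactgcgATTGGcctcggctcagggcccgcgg
Ybx1: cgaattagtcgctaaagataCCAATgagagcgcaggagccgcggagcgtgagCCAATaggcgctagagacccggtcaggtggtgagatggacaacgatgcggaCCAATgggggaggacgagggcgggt
Dazl: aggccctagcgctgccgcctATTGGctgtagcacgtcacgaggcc
Boll: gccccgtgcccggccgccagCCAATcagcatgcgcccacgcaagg
In GRCm38.p6 these lie at chromosome 11, 69935739 to 69935836 (*Ybx2*, plus strand), chromosome 4, 119294541 to 119294668 (*Ybx1*, minus strand), chromosome 17, 50293643 to 50293687 (*Dazl*, minus strand) and chromosome 1, 55362757 to 55362801 (*Boll*, minus strand). *Ybx1* held 3 matches and *Ybx2* 2. Both *Ybx2* and *Boll* have another promoter in the table, with 0 matches. A match is a string of letters, and binding was not measured.

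Each sample had between 27144796 and 36941755 transcript counts. Wild type testes held 17.2 ± 16.5 CPM of the targeted gene *Morc2b* and mutant testes 0.989 ± 1.54 CPM (SD, n = 4 each), and the genotypes overlapped. In the library labelled wild type replicate 3 *Morc2b* was at 0.857 CPM (24 counts), whereas the other wild type libraries had 428 to 1272 counts. In the library labelled *Morc2b*-/- replicate 3 it was at 3.29 CPM (115 counts), against 2 to 10 counts in the other mutant libraries. The targeted gene thus went against the label of the library labelled wild type replicate 3. In the library labelled *Morc2b*-/- replicate 3 it lay above the other mutant libraries but below the other wild type libraries, which had 11.7 to 40.0 CPM. Genotypes were taken from the labels, and directions between the genotypes rest on these labels. Of all pairs of libraries, the one labelled wild type replicate 3 and *Morc2b*-/- replicate 1 were the most alike, with a chi-square per degree of freedom of 5.67 over genes. Without the libraries labelled wild type replicate 3 and *Morc2b*-/- replicate 3, an alternative added after the data were seen, edgeR called 0 genes after adjustment and 421 at an unadjusted p-value under 0.05. The log2 fold change was then -0.73 for *Ybx2*, -0.10 for *Ybx1*, -0.27 for *Ybx3*, 0.46 for *Fmr1*, -0.13 for *Fxr1*, -0.05 for *Fxr2*, 0.48 for *Dazl*, -0.22 for *Boll* and -0.0062 for *Ythdc2*. Wild type replicate 1 and the library labelled *Morc2b*-/- replicate 3 stood apart in spermatid marker counts, with 150.5 and 305 CPM summed over 8 markers against at most 34.5 CPM in the other 6 samples. The paper found MORC2B protein to be abundant in round spermatids. It places the first of these cells at an age later than day 12, and found adult mutant tubules devoid of spermatids. Where the spermatid marker counts came from was not tested, nor was the part of that source in the *Morc2b* counts. Wild type replicate 1 also had 290 CPM over 8 epididymis markers, against at most 15.7 CPM elsewhere. CPM denotes read counts scaled to library size with TMM factors.

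Across the genotypes, no gene of the group passed the test. In edgeR's quasi-likelihood test 0 of the 9 tested members had an adjusted p-value under 0.05, as did 0 (0%) of all 13507 tested genes, and the adjusted p-value was 0.9998 for each member. The targeted gene *Morc2b* did not pass this test either, with a log2 fold change of -4.09. Its unadjusted p-value in edgeR was 0.00793 and its adjusted p-value 0.9998. A member that did not pass is thus not shown to be unchanged. Members with an unadjusted p-value under 0.05 numbered 0, against 249 of all tested genes (1.84%), of which 1.34% were lower and 0.503% higher in *Morc2b*-/- testes. The genotypes overlapped for all 9 members, whereas they did not overlap for 174 tested genes (1.29%). Log2 fold changes were below 0 for 6 members and above 0 for 3, and 49.2% of all tested genes were below 0. Its median was -0.05 over the 9 members and 0.00222 over all tested genes. The samples are separate pairs of testes, and fewer cells of a type and less RNA per cell cannot be told apart in whole testis.

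**Figure D1:**
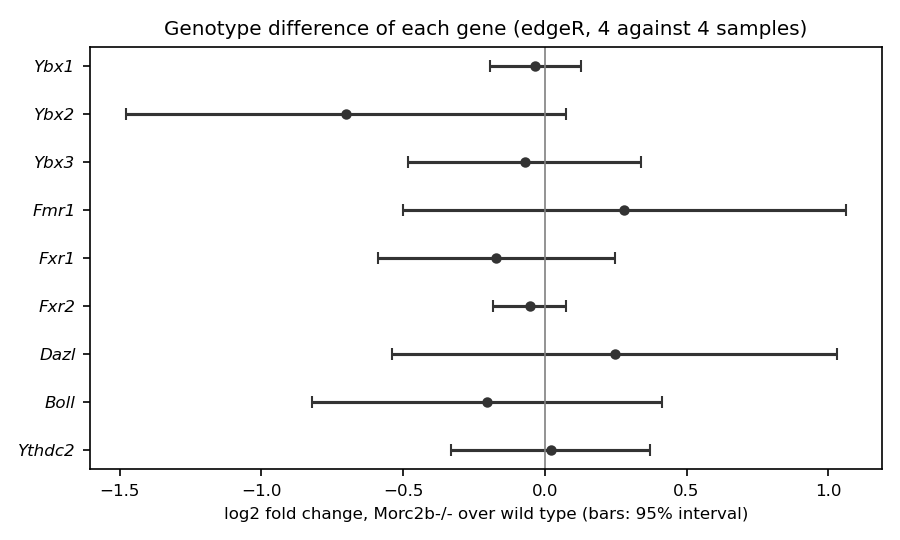
Log2 fold change of each tested gene in *Morc2b*-/- over wild type testes (x axis, points) with its 95% interval (bars) from edgeR, 4 against 4 samples. Every interval includes 0, and the narrowest belong to *Fxr2* and *Ybx1* and the widest to *Dazl*, *Fmr1* and *Ybx2*.

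*Ybx1* (NCBIM37 chromosome 4, 118950586 to 118967209, minus strand) and *Fxr2* (chromosome 11, 69446492 to 69466799, plus strand) were the most evenly expressed members. *Ybx1* had 259, 237, 226 and 273 CPM in wild type replicates 1 to 4 and 225, 242, 254 and 251 CPM in *Morc2b*-/- replicates 1 to 4. The groups overlapped almost entirely. For *Ybx1* the log2 fold change came to -0.03 (standard error 0.07), and the 95% interval of the fold ran from 0.874 to 1.09. *Fxr2*, which encodes an FMRP paralog, had 376, 415, 384 and 394 CPM in wild type replicates 1 to 4 and 351, 390, 370 and 399 CPM in *Morc2b*-/- replicates 1 to 4. Its lowest values were those of the libraries labelled *Morc2b*-/- replicates 1 and 3, and the other mutant samples lay within the wild type range. For *Fxr2* the log2 fold change came to -0.05 (standard error 0.06), with an interval of the fold from 0.881 to 1.05. Within a genotype *Fxr2* varied with a coefficient of variation of 5.01%, lower than that of 91.1% of tested genes, and *Ybx1* with 7.22%.

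Germ cell *Ybx2* had the largest difference of the group, and it did not pass the test. The paper, which used Cuffdiff on FPKM values, counts *Ybx2* among the genes mis-expressed in mutant testes. It also reports that real-time PCR on other day 12 testes bore out every gene chosen for that assay. In order of replicate number, wild type samples had 119, 114, 74 and 230 *Ybx2* counts and mutant samples 68, 107, 63 and 109. Scaled, these were 3.24, 4.18, 2.64 and 7.23 CPM in wild type and 2.20, 2.89, 1.80 and 3.75 CPM in *Morc2b*-/- testes. Wild type replicate 4 was the highest sample, and 2 mutant samples lay within the wild type range. The log2 fold change of *Ybx2* was -0.70 (standard error 0.34, unadjusted p = 0.0711 and adjusted p = 0.9998 in edgeR's quasi-likelihood test), and the fold had an interval from 0.359 to 1.05. Without wild type replicate 4 it was -0.34, with an unadjusted p-value of 0.266 in edgeR. That p-value was 0.0309 without the library labelled wild type replicate 3 and 0.0350 without *Morc2b*-/- replicate 4. With any other single sample left out, it lay between 0.0550 and 0.160. *Ybx2* varied within a genotype by 44.7%, more than 93.4% of tested genes, and the median for the 1308 genes of similar count was 19.2%.

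Within a sample the Y-box genes can be set against each other without any scaling. Counts of *Ybx2* were 1.25%, 1.76%, 1.17% and 2.65% of those of *Ybx1* in wild type replicates 1 to 4 and 0.978%, 1.20%, 0.710% and 1.49% in *Morc2b*-/- replicates 1 to 4. The genotypes overlapped here as well, so dividing by the paralog did not separate them. These percentages compare part of the *Ybx2* message with the whole *Ybx1* message and are no ratio of the levels. *Ybx3* (NCBIM37 chromosome 6, 131314876 to 131338468, minus strand), whose protein is known from somatic cells and germ cells alike, had 2.94, 2.71, 2.39 and 2.51 CPM in wild type and 2.10, 2.24, 3.27 and 2.44 CPM in *Morc2b*-/- replicates 1 to 4. Its highest value was in the library labelled *Morc2b*-/- replicate 3, the sample with the most spermatid marker counts. For *Ybx3* the log2 fold change came to -0.07 (standard error 0.18), with an interval of the fold from 0.715 to 1.27, and -0.17 when wild type replicate 1 and the library labelled *Morc2b*-/- replicate 3 were both left out.

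**Figure D2:**
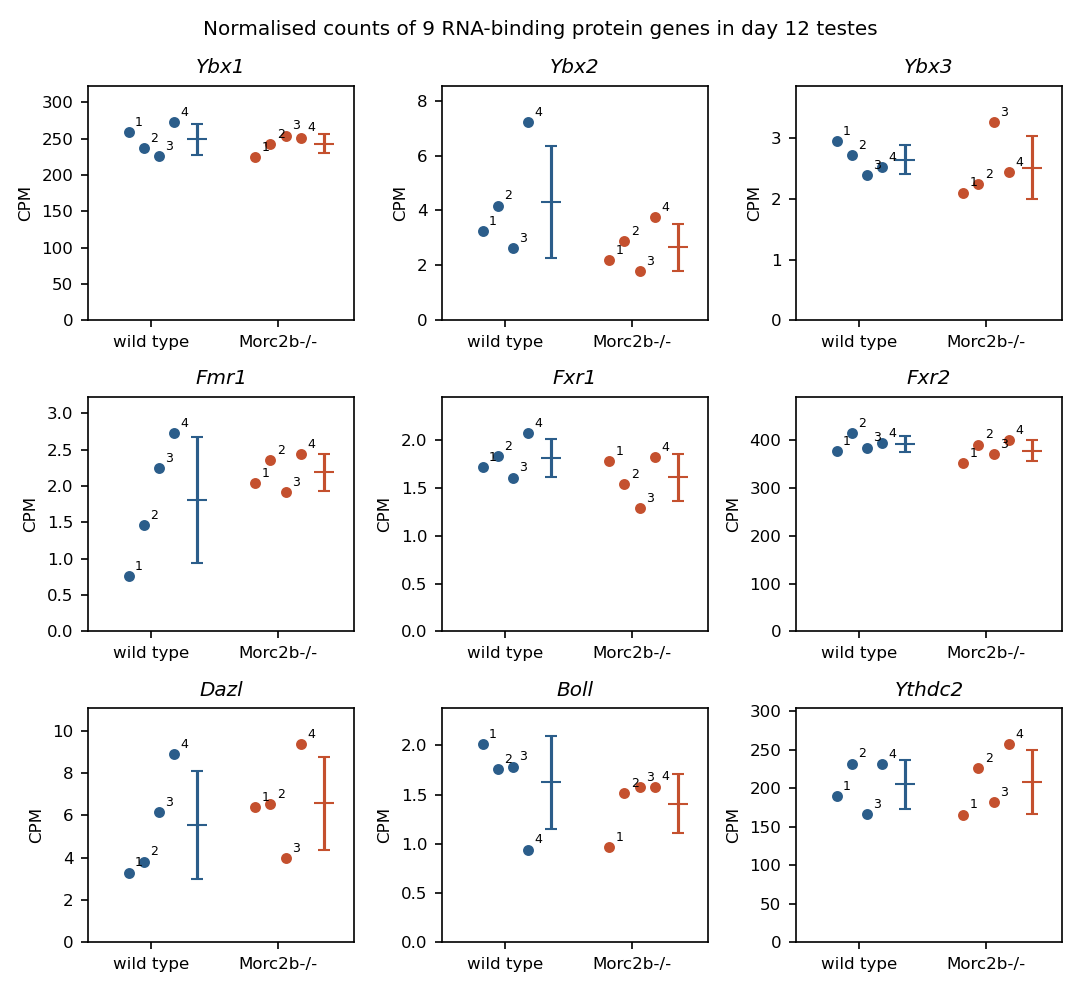
CPM (y axis, from 0) of the 9 tested genes in 4 wild type and 4 *Morc2b*-/- samples, 1 point per sample with its replicate number, beside the mean and SD of each genotype. The genotypes overlap in every panel, and *Ybx2* is highest in wild type replicate 4, at 7.23 CPM.

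In the fragile X family, *Fmr1* (NCBIM37 chromosome X, 65931716 to 65971138, plus strand) and *Fxr1* (chromosome 3, 33919001 to 33968264, plus strand) rested on few counts. The paper, by Cuffdiff, calls *Fmr1* upregulated in mutant testes. By replicate number, 28, 40, 63 and 87 *Fmr1* reads were counted in wild type and 63, 87, 67 and 71 in mutant samples, or 0.763, 1.47, 2.25 and 2.73 CPM against 2.04, 2.35, 1.92 and 2.44 CPM. The mutant samples sat in a narrow band inside the wild type range, and wild type replicates 1 and 2 were the lowest of all. For *Fmr1* the log2 fold change came to 0.28 (standard error 0.35), with an interval of the fold from 0.706 to 2.09. It was 0.02 without wild type replicate 1, the sample with epididymal and spermatid marker counts, and 0.55 without wild type replicate 4. For *Fxr1*, 63, 50, 45 and 66 reads were counted in wild type and 55, 57, 45 and 53 in mutant samples, with the genotypes overlapping. In NCBIM37 *Fxr1* shares 178 exonic bases with *Dnajc19* on the other strand, and whether the counting used strand is not given. Its spread within a genotype was at the level of counting error (chi-square per degree of freedom of 0.960), against 7.63 for *Fmr1* and 29.8 for the deeply counted *Fxr2*. For *Fxr1* the log2 fold change came to -0.17 (standard error 0.19), and its interval of the fold ran from 0.665 to 1.19. Counts of *Fmr1* were 44.4%, 80.0%, 140.0% and 132% of those of *Fxr1* in wild type replicates 1 to 4 and 115%, 153%, 149% and 134% in *Morc2b*-/- replicates 1 to 4. Since *Fxr1* varied only at the level of counting error, this ratio largely repeats the values of *Fmr1*. Differences of *Fxr1* within its interval were not detectable at this depth, whereas the spread of *Fmr1* between samples was above counting error.

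*Dazl* (NCBIM37 chromosome 17, 50418719 to 50432924, minus strand) and *Boll* (chromosome 1, 55305502 to 55420313, minus strand) are both germ cell genes with a single RNA recognition motif, and *Dazl* acts from the earliest germ cells whereas *Boll* is known from later meiotic stages. *Dazl* had 3.30, 3.81, 6.14 and 8.89 CPM in wild type replicates 1 to 4 and 6.40, 6.52, 3.98 and 9.39 CPM in *Morc2b*-/- replicates 1 to 4. The highest samples were replicate 4 of each genotype, and the ranges nearly coincided. For *Dazl* the log2 fold change came to 0.25 (standard error 0.35), and the fold had an interval from 0.689 to 2.04. It was 0.02 without *Morc2b*-/- replicate 4 and 0.57 without wild type replicate 4. *Dazl* varied within a genotype by 39.5%, more than 91.0% of tested genes. *Boll* had 2.02, 1.76, 1.79 and 0.943 CPM in wild type and 0.970, 1.51, 1.58 and 1.58 CPM in *Morc2b*-/- replicates 1 to 4. Its low samples were wild type replicate 4 and *Morc2b*-/- replicate 1, one of each genotype, and in wild type replicate 4 *Dazl* was at its wild type maximum. For *Boll* the log2 fold change came to -0.20 (standard error 0.27), with an interval of the fold from 0.565 to 1.33. It was -0.40 without wild type replicate 4 and -0.07 without *Morc2b*-/- replicate 1.

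*Ythdc2* varied more between samples of a genotype than between the means of the genotypes. It had 190, 232, 167 and 232 CPM in wild type replicates 1 to 4 and 166, 226, 182 and 258 CPM in *Morc2b*-/- replicates 1 to 4. In both genotypes replicates 2 and 4 were high and replicates 1 and 3 low. The same held for *Fxr2* and *Ybx2*, and for the summed leptotene and zygotene markers given below. For *Ythdc2* the log2 fold change came to 0.02 (standard error 0.16), and its interval of the fold ran from 0.796 to 1.29. Its coefficient of variation within a genotype was 18.1%, whereas the median of the 1489 genes with a similar count was 7.11%. Leaving out single samples moved the log2 fold change to between -0.10 and 0.11.

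Levels of different genes can be compared per length for the 3 genes counted whole, using the longest coding transcript of the NCBIM37 annotation as length. In wild type testes *Ybx1* (1628 bases) was at 152.8 ± 13.1, *Fxr2* (2951 bases) at 132.9 ± 5.66 and *Ythdc2* (6299 bases) at 32.6 ± 5.14 CPM per kilobase (SD, n = 4). In *Morc2b*-/- testes they were at 149.2 ± 8.15, 128.0 ± 7.30 and 33.0 ± 6.66 CPM per kilobase (SD, n = 4). The order was the same in all 8 samples. *Ybx1* lay above *Fxr2* within every library. Across wild type libraries their ranges overlapped, from 138.6 to 167.7 for *Ybx1* and from 127.5 to 140.6 CPM per kilobase for *Fxr2*. Across mutant libraries the 2 ranges were apart, and *Ythdc2* lay below both genes throughout. The transcript models used for counting may differ in length from this annotation.

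The samples differed in their early meiotic content, which was set beside the members. Summed over 8 leptotene and zygotene markers such as *Sycp1*, *Sycp3* and *Meiob*, the level was 2153, 2960, 1883 and 3129 CPM in wild type replicates 1 to 4 and 1729, 2206, 1714 and 3187 CPM in *Morc2b*-/- replicates 1 to 4. The genotypes covered about the same range, from 1883 to 3129 CPM in wild type and from 1714 to 3187 CPM in *Morc2b*-/- testes, with 0 of 8 markers past the test. All 8 of these markers had counts. Over the 8 samples the correlation of this sum with the log2 CPM of the members was 0.91 for *Ythdc2*, 0.88 for *Ybx2*, 0.83 for *Fxr2* and 0.72 for *Fxr1*, and it was -0.06 for *Boll* and -0.05 for *Ybx3*. Since *Fxr1* varied within a genotype only at the level of counting error, its correlation says little. *Ythdc2* had a correlation of -0.93 with the sum of 6 markers of undifferentiated spermatogonia, which ranged from 297 to 404 CPM in wild type and from 283 to 398 CPM in *Morc2b*-/- testes. *Zbtb16* and *Lin28a* made up most of that sum, and *Gfra1* was at or near 0. *Etv5* and *Id4* went the other way, each highest in replicate 4 of both genotypes, where the sum was lowest. The correlation is thus not shared by all markers of the list. These correlations describe 8 samples that share library, depth and cell composition, and the part of cell composition in them was not tested. Pachytene markers, 8 in all with *Clgn* at 0, summed to between 23.8 and 251 CPM in wild type and between 27.0 and 146 CPM in *Morc2b*-/- testes. The 2 highest sums were those of wild type replicate 4, where *Ybx2* was highest, and of the library labelled *Morc2b*-/- replicate 3, where it was lowest. These sums were unlike in makeup. The first was mainly *Piwil1* (133 CPM) and *Ldhc* (111 CPM), and the second mainly *Ldhc* (103 CPM), with *Piwil1* at 14.7 CPM. The correlation of *Ybx2* with the pachytene sum was 0.45. Among these markers *Piwil1*, named after its values were seen, had an unadjusted p-value under 0.05 and did not overlap between the genotypes, with 16.6 to 133 CPM in wild type and 14.7 to 15.8 CPM in *Morc2b*-/- testes. Sertoli cell markers summed to between 6706 and 7619 CPM in wild type and between 7259 and 8202 CPM in *Morc2b*-/- testes, and 3 of 4 mutant samples lay above every wild type sample. *Clu* made up most of each sum, with 5493 to 6400 CPM in wild type and 6057 to 6790.4 CPM in *Morc2b*-/- testes. It had an unadjusted p-value under 0.05 in edgeR. The genotypes overlapped for *Clu* and for each of the other Sertoli cell markers, so this sum is mainly a reading of *Clu*. The part of these markers in the difference of *Ybx2* was not tested.

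**Figure D3:**
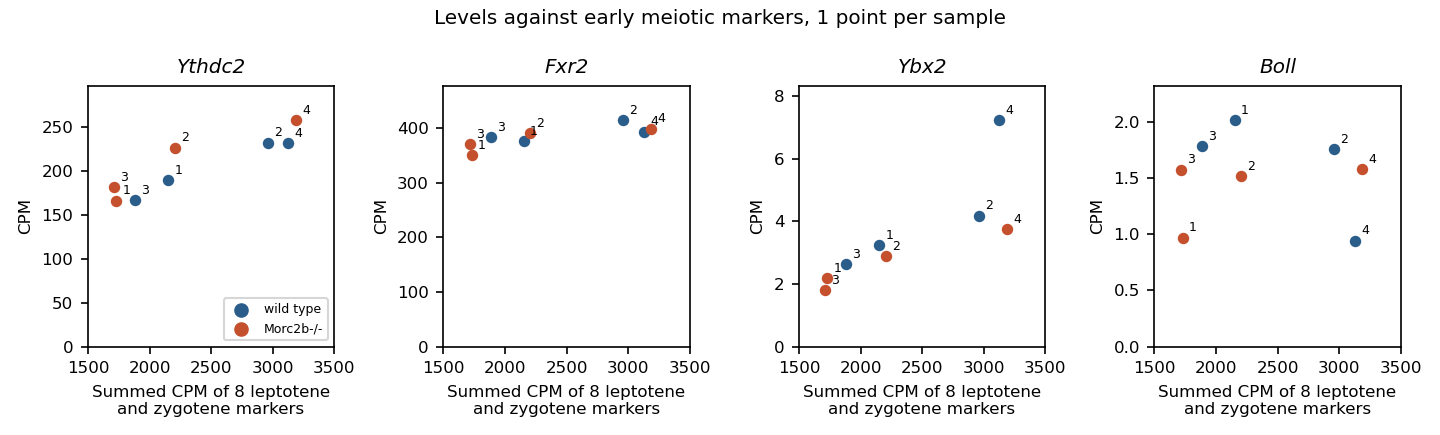
CPM (y axis, from 0) of *Ythdc2*, *Fxr2*, *Ybx2* and *Boll* against the summed CPM of 8 leptotene and zygotene markers (x axis, not starting at 0), 1 point per sample, coloured by genotype and marked with the replicate number. *Ythdc2* and *Ybx2* are higher in samples with more marker counts in both genotypes, whereas *Boll* shows no such order.

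With a score of these early meiotic markers in the model, an alternative added after the data were seen, the log2 fold change of *Ybx2* was -0.49 (standard error 0.23) and that of *Ythdc2* 0.12 (standard error 0.05). Their unadjusted p-values were 0.0645 and 0.0338, and the adjusted p-value in edgeR's quasi-likelihood test was 0.9992 for both. That of *Fxr2* was -0.03 (standard error 0.04) and that of *Dazl* 0.34 (standard error 0.32).

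**Figure D4:**
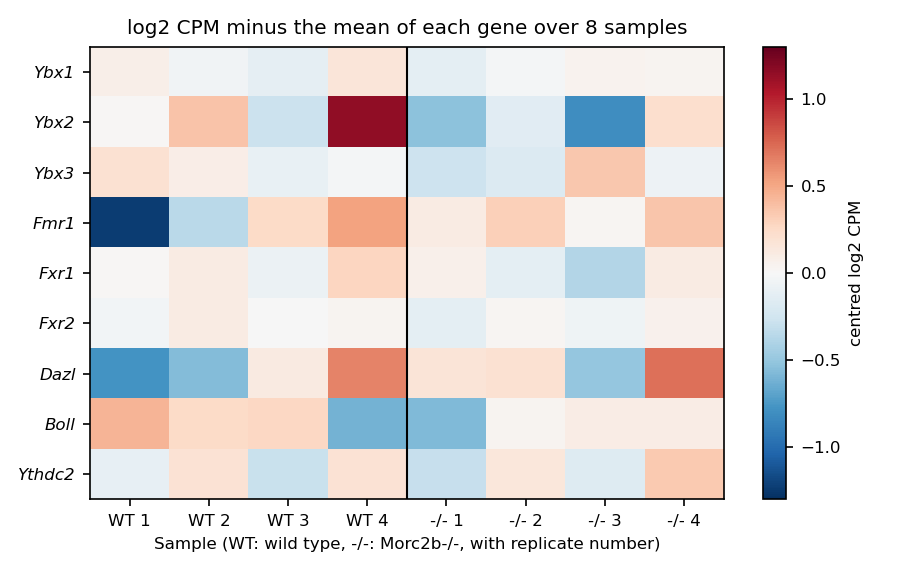
Log2 CPM of each gene minus its mean over the 8 samples (colour), for 4 wild type (left) and 4 *Morc2b*-/- samples (right). *Ybx2*, *Fmr1*, *Dazl* and *Boll* vary most between samples, down to -1.24 for *Fmr1* in wild type replicate 1 and up to 1.16 for *Ybx2* in wild type replicate 4, and *Ybx1* and *Fxr2* least.

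Members did not vary as 1 group. Over the 8 samples *Ybx2* and *Fxr1* had a correlation of log2 CPM of 0.84, *Fmr1* and *Dazl* also 0.84, and *Fxr2* and *Ythdc2* 0.80, while *Ybx3* and *Dazl* had -0.67 and *Dazl* and *Boll* -0.60. The tested genes outside the group most like *Ybx2* were *Sugp2* (0.99), *Izumo4* (0.98) and *Ptpn20* (0.98). For the other members they were *Nsmce1* for *Ybx1* (0.982), NM_024478, a transcript without a symbol here, for *Ybx3* (0.957), *Slc25a36* for *Fmr1* (0.985), *Ap4m1* for *Fxr1* (0.981), *Pgap6* for *Fxr2* (0.985), *Vxn* for *Dazl* (0.985), *Mme* for *Boll* (0.976) and *Dnajc21* for *Ythdc2* (0.994). Each is the highest correlation found among all tested genes over only 8 samples and is a description. The correlations of *Fxr1*, whose spread within a genotype was at the level of counting error, say little.

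Genes that work beside the members were taken from 6 lists by role, 73 genes, and 56 of them had enough counts to be tested. No gene of these lists passed the test, and 0 of 56 had an unadjusted p-value under 0.05, against 1.84% of all tested genes. The log2 fold change was below 0 for 23 and above 0 for 33, with a median of 0.02, and 49.2% of all tested genes were below 0. Among 5 cold shock protein genes, all tested, *Carhsp1* had the largest difference, from 327 ± 15.2 to 349 ± 5.54 CPM (log2 fold change 0.10). Among 7 genes of FMRP partners and stress granule proteins, 4 were tested, and *Cyfip1*, whose protein binds FMRP, had -0.32. *Ddx4*, the germ cell helicase VASA, had the largest difference of 16 tested germline repressors and DAZ partners, from 2.99 ± 0.285 to 2.48 ± 0.270 CPM (log2 fold change -0.26). Among 10 tested genes of cytoplasmic polyadenylation and poly(A) binding, *Cpeb2*, a relative of the unmeasured *Cpeb1*, had -0.36. Of 9 tested m6A genes and YTHDC2 partners, 8 were above 0, with small log2 fold changes from 0.00499 to 0.0767. The largest difference was that of the reader gene *Ythdf3*, from 0.566 ± 0.227 to 0.400 ± 0.162 CPM (log2 fold change -0.52). Among 12 tested genes of decapping, deadenylation and repression, *Patl2* had 0.22. The SDs are over 4 samples each, and *Ythdf3*, *Cyfip1*, *Ddx4* and *Cpeb2* are listed under 2 or 3 transcripts and counted in part. *Meioc*, the YTHDC2 partner gene and named for that role after its values were seen, averaged 352 ± 60.3 CPM in wild type and 358 ± 72.6 CPM in mutant testes (SD, n = 4 each).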

How the data were processed

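RNA-seq libraries of 8 day 12 testis samples (4 wild type, 4 *Morc2b*-/-) were analysed. Per its methods, the study trimmed adapters, removed low-quality reads and aligned to mm9 with Tophat. The deposited values are raw read counts per RefSeq transcript, 1 file per sample. The counting program, its strand setting and annotation release are not given in the sources used here. Of 35819 transcripts, 35517 were matched to a symbol, and counts were summed per symbol. The remaining 302 (0.504% of counts) entered under their transcript identifier.

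The genotype difference was fitted by edgeR 4.0.16 under R 4.3.3 (TMM, filterByExpr, glmQLFit, glmQLFTest, genotype only), with Benjamini-Hochberg adjustment over all 13507 genes that passed the filter. The study itself tested FPKM values with Cuffdiff, which needs the reads and was not used here. Intervals and standard errors come from the edgeR fit. Correlations used log2 CPM with a prior count of 2. The step was tested on simulated counts. DESeq2 1.42.0, limma 3.58.1 (voom), RLE scaling, other filters, a replicate block, single transcripts and left-out samples were tried as alternatives. All pairs of samples differed by more than counting error (chi-square per degree of freedom of 5.67 or more), so all 8 were treated as separate.

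Members and lists were chosen with earlier results of these data known. Named are the members, *Morc2b*, the genes most correlated with each member, and in each role list the gene with the largest absolute fold change and any with an unadjusted p-value under 0.05. Exceptions are marked. The real-time PCR values and other ages were not analysed here. A result on 1 related gene is not reported here.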

Additional observations from a re-analysis of the deposited data

Results flagged for a closer look

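Among the 18 sets of 4 samples (9 members in 2 genotypes), 1 held a sample far from the other 3. *Boll* in *Morc2b*-/- replicate 1 was at 0.970 CPM, against 1.51, 1.58 and 1.58 CPM in the other mutant samples, and the gap to the nearest of them was 0.890 of the range of the genotype. Chance alone sets apart a sample in about 1 of 20 such sets. The value rests on 30 counts.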

How the results depend on the processing

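Over 18 alternatives the 9 members gave 162 log2 fold changes, of which 154 kept their direction and 8 changed sign, and the smallest adjusted p-value among them was 0.985. Of the changes of sign, 7 came from leaving out a single sample, and the other was *Ythdc2* at -0.00621 without the libraries labelled wild type replicate 3 and *Morc2b*-/- replicate 3. With 1 sample left out, the log2 fold change ranged from -0.0784 to 0.0108 for *Ybx1*, from -0.22 to 0.00263 for *Ybx3* and from -0.10 to 0.11 for *Ythdc2*. The number of genes at an adjusted p-value under 0.05 was 0 in all alternatives with the exception of DESeq2, which called 1 gene, *Pkmyt1*. The number at an unadjusted p-value under 0.05 was 249, 422 without the low-count filter, 421 without those 2 libraries, 457 with the early meiotic score, 572 with the replicate block and between 204 and 504 with 1 sample left out (504 without the library labelled wild type replicate 3, 466 without wild type replicate 4 and 385 without *Morc2b*-/- replicate 1). The cause was not tested. Deviations of same-numbered samples had correlations from -0.32 to 0.45, not every sample correlated best with its own number, and the numbers were not taken to pair the samples. With the replicate block the log2 fold change of *Ybx2* was -0.65 (unadjusted p = 0.00386, adjusted p = 0.985 in edgeR). Depth limits *Fxr1*, whose spread was at the level of counting error with at most 66 counts in a sample.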

Other observations

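Some germline repressor and cold shock protein genes listed under 1 transcript, and so counted whole, were picked after their values were seen. *Dnd1*, needed for germ cell survival, ranged from 23.9 to 33.8 CPM in wild type and from 25.9 to 33.7 CPM in *Morc2b*-/- testes. *Nanos2*, which keeps spermatogonia undifferentiated, averaged 1.77 ± 0.620 CPM in wild type and 1.74 ± 0.275 CPM in mutant testes (SD, n = 4 each, as for the genes that follow). *Lin28a*, a cold shock protein gene of undifferentiated spermatogonia, was at 131 ± 24.2 and 138 ± 29.9 CPM, and *Ddx25*, which encodes a germ cell helicase, was at 97.8 ± 10.9 and 91.1 ± 7.99 CPM. For each of these picked genes the difference was smaller than the SD between samples of a genotype. This does not hold for the lists as a whole. *Carhsp1*, also counted whole, went from 327 ± 15.2 to 349 ± 5.54 CPM.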
